A study of Mus musculus with 56 samples.

Results

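This account covers 10 genes of the signalling chain from the ACTH receptor to cAMP and its targets in the mouse adrenal gland: Mc2r, Mrap, Gnas, Prkaca, Prkar1a, Prkar2b, Pde8b, Pde2a, Creb1 and Crem. They were chosen by name, matched to their Ensembl identifiers, and all 10 were found in each of the 3 deposited count tables, among 58511 identifiers that occur in any of them. The study sequenced strand-specific poly(A) RNA from the whole adrenals of C57BL/6J mice, with 4 mice in each of 14 groups (56 libraries). The knockout animals, abbreviated cKO, carried SF1-Cre+ with Znrf3 Fx/Fx, so that Znrf3, which encodes a ubiquitin ligase that clears Wnt receptors from the cell surface, was targeted in steroidogenic cells that express the SF1-Cre driver. Control littermates were SF1-Cre negative, and their Znrf3 alleles are not named in the labels. Both genotypes were collected at ages of 6, 9 and 12 weeks (females) or 4, 6 and 9 weeks (males). A further 8 cKO males, all SF1-Cre+ with Znrf3 Fx/Fx, were castrated or given sham surgery at week 4 and taken at 9 weeks. Of these, 2 castrated animals carried R26mTmG/mTmG, 1 castrated and 2 sham animals R26eYFP/WT, 1 sham animal R26mTmG/WT and 1 animal of each group no reporter. The study asked what accompanies the switch of the cKO gland from enlargement to regression.

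ACTH from the pituitary binds the melanocortin 2 receptor (Mc2r), which needs the accessory protein MRAP to reach the cell surface, and couples through the stimulatory G protein (Gnas) to adenylyl cyclases. The cAMP they make releases the catalytic subunits of protein kinase A (PKA; Prkaca) from regulatory subunits (Prkar1a, Prkar2b), and PKA phosphorylates CREB and related factors and drives steroid synthesis in the adrenal cortex. Phosphodiesterases such as Pde8b and Pde2a break cAMP down, and Crem yields a short, inducible repressor that limits the response. In human adrenal disease, changes in the genes for several of these proteins go with excess cortisol.

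Levels are TMM-scaled counts relative to library size (CPM), and values after ± are the SD of 4 libraries for a level and the SE for a log2 fold change. A gene is said to rise or fall where edgeR's quasi-likelihood test over all genes tested gave a Benjamini-Hochberg adjusted p under 0.05. All adjusted p-values below come from that test unless another setting is named. Levels of the 3 tables (females, males, surgery) were never compared with each other. Because these are whole glands, fewer cells of a type and less RNA per cell cannot be told apart.

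Libraries held 35694264 to 51604620 counts in females, 12431963 to 35531016 in males and 25145519 to 42411447 in the surgery series. The adrenal identity of the glands was plain, with Star at 4169 CPM or more in every library. Gene-level Znrf3 was higher in cKO glands in all 6 comparisons by genotype, with log2 fold changes from 0.49 ± 0.13 in males at 6 weeks to 1.13 ± 0.13 in females at 12 weeks. A count over the whole gene does not show the deleted part, so it does not check the genotype labels. Markers of other cell types moved with genotype. All 8 medulla markers fell in each of the 6 comparisons. Macrophage markers rose, by counts from 1 of 8 in males at 4 weeks to 7 of 8 in females at 9 weeks and in males at 6 weeks. Of the 6 markers of the zona glomerulosa, the outer cortical zone, 4 to 6 fell. Over all genes, 11.9% to 20% were called lower and 6.29% to 14.6% higher in these comparisons. Among sham-operated glands, replicate 1 stood apart, with 9.87% of counts from mitochondrial genes against 2.41% to 3.11% in the other 3 sham libraries. In that library 93.9% of counts fell on identifiers with a gene symbol, against 99.6% to 99.8% in the other 3. In males the library numbers of the labels ran unevenly across genotypes. All 4 controls at 6 weeks and 3 of 4 at 4 weeks were numbered above 24, against none of the cKO glands at those ages. At 9 weeks both genotypes had 2 libraries on each side of 24. In the surgery series all castrated libraries were numbered up to 16, while sham libraries lay on both sides of 16.

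Sequence upstream of the transcript starts was taken from RefSeq on GRCm38.p6 for the 7 genes with an entry (Gnas, Prkaca, Prkar1a, Prkar2b, Pde8b, Pde2a and Creb1), in 25 windows of 250 bases. Mc2r, Mrap and Crem were not matched. The windows were searched on both strands for the cAMP response element TGACGTCA, for its 5-base part TGACG, which also lies within the full element, and for AAGGTCA, a site of the type bound by SF1. The full element was in 1 of the 25 windows, that of Prkar1a, and in 1.55% of all 32851 upstream windows of the table. The 5-base part was in 7 of the 25 windows, of Prkar1a, Prkaca and Gnas, and in 17.8% of all windows. By gene these are 3 of the 7, against 19.8% of all 27025 genes. The 7 genes have 25 windows and all 27025 genes have 32851, so each of the 7 had more windows to match and these shares are not alike. Some windows of Prkar1a and of Gnas overlap each other, so 1 site can count in more than 1 window. The 3 windows of Gnas with the 5-base part held 179, 198 and 250 bases of annotated exon. AAGGTCA was in 0 of 25 and in 4.08% of all. A match describes letters and is not shown binding. The upstream stretches of 3 genes are shown because their levels differ in how they moved with genotype and castration, with the matched letters in capitals. That of Prkar1a lies at chr11:109650699-109650920 on the plus strand of GRCm38.p6, before its exon, and its last base is 28 bases from the transcript start. That of Prkaca lies at chr8:83972728-83972977 on the plus strand, where the capitals mark the 5-base part read from the other strand. That of Pde8b lies at chr13:95250337-95250586 on the minus strand and held none of the motifs.
Prkar1a: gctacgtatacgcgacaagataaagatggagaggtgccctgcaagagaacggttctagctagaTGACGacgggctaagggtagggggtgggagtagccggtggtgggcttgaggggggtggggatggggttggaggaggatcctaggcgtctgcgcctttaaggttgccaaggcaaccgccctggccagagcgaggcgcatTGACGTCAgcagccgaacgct
Prkaca: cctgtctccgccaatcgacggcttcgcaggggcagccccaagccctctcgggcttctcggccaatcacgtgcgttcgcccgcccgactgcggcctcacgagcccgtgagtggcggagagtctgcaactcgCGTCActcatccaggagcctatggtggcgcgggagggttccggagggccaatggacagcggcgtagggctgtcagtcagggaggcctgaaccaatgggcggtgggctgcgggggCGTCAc
Pde8b: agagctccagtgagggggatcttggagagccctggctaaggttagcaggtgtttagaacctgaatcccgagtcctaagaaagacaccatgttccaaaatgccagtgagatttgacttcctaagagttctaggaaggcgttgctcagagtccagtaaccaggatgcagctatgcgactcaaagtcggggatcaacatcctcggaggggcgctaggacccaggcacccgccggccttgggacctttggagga

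Per kilobase of annotated exon, the 10 genes spanned a wide range. In control females at 6 weeks the level per kilobase was highest for Mc2r (218 ± 13.8 CPM per kb), then Gnas (165 ± 5.47), Prkar1a (138 ± 4.63), Mrap (124 ± 5.48), Prkaca (86.9 ± 3.46), Prkar2b (49.1 ± 4.86) and Pde8b (25.1 ± 3.3). Crem (4.41 ± 1.35), Creb1 (3.18 ± 0.0858) and Pde2a (3.08 ± 0.16) were at the bottom, and these 3 did not differ beyond 1 SD. In control males at 6 weeks Gnas led (233 ± 7.57 CPM per kb), followed by Mc2r (178 ± 27.7) and Mrap (137 ± 31), which overlapped within 1 SD. Prkar1a (117 ± 8.05) overlapped with Mrap in the same way, and Prkaca (79.9 ± 7.85) with Prkar2b (65.1 ± 12.6). Pde8b (10.8 ± 2.75), Crem (4.9 ± 2.62), Creb1 (2.56 ± 0.172) and Pde2a (2.15 ± 0.17) followed. Gnas has many alternative exons, so its level per kilobase of all exons is lower than that of a single transcript would be. Pde2a is overlapped on the same strand by Gm45837, and its level is too low if reads shared by both genes were not counted.

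Of the 10 genes, 2 rose and 1 fell in cKO females at 6 weeks, where 33.4% of all 18645 genes tested were called, 14.2% higher and 19.1% lower. At 9 weeks 1 rose and 1 fell, where 34.6% of all genes were called, 14.6% higher and 20% lower. At 12 weeks 1 rose and 1 fell, where 25.1% were called, 9.11% higher and 16% lower. In males at 4 weeks 1 rose and 2 fell, where 19.2% of all 17086 genes were called, 6.29% higher and 12.9% lower. At 6 weeks none rose and 4 fell, where 20.1% were called, 8.19% higher and 11.9% lower. At 9 weeks none rose and 2 fell, where 24.1% were called, 10.4% higher and 13.6% lower. After castration 4 rose and 1 fell, where 43.6% of 16961 genes were called, 19.8% higher and 23.8% lower. The libraries of the groups did not overlap for 30.4%, 33.4% and 26.2% of all genes in females at 6, 9 and 12 weeks, for 19.1%, 24.7% and 21.7% in males at 4, 6 and 9 weeks, and for 43.1% after castration. The share of the 10 genes called was near or below that of all genes in females, in males at 9 weeks and after castration, and above it in males at 4 and 6 weeks. At those 2 male ages library numbers ran unevenly across genotypes. With library number (above 24 or not) as a term of the fit, 1 of the 10 genes was called at each age. Of all 17086 genes, 1701 and 1613 were called in that fit at 4 and 6 weeks. The median log2 fold change over the 10 genes was -0.03, 0.06 and -0.09 in females at 6, 9 and 12 weeks, and 0.01, -0.35 and -0.25 in males at 4, 6 and 9 weeks. Over all genes tested the medians lay between -0.02 and 0.01. After castration the median of the 10 genes was 0.35 against -0.01 over all genes.

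**Figure D1:**
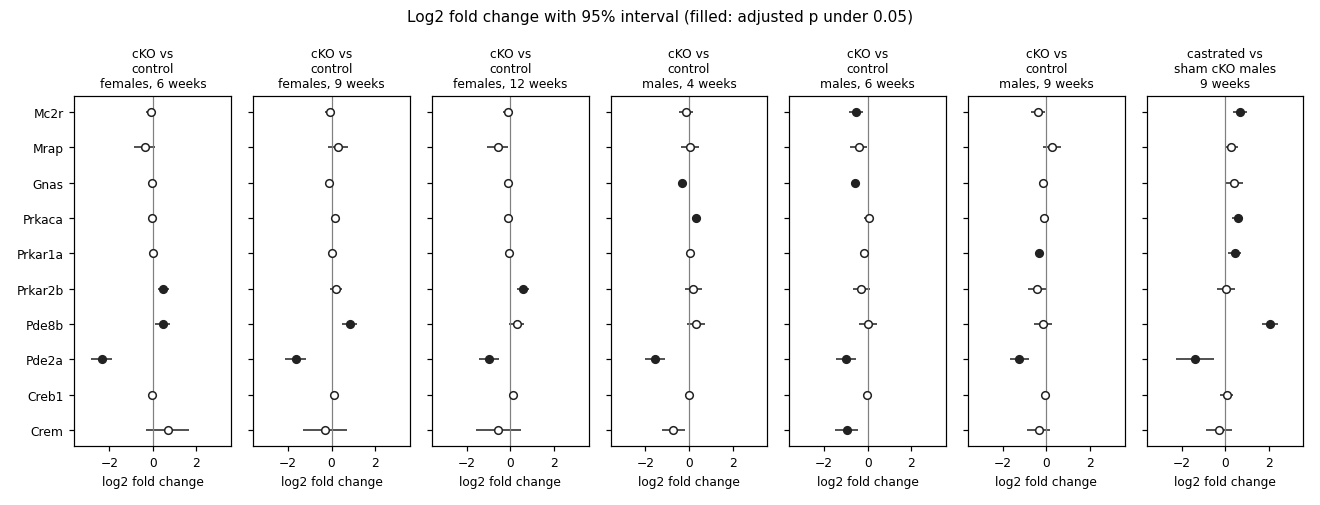
Log2 fold change of each of the 10 genes (horizontal axis) with its 95% interval in the 6 comparisons of cKO with control glands and in castrated against sham-operated cKO males. Filled points passed an adjusted p under 0.05: Pde2a is filled and left of 0 in all 7 panels, and Pde8b reaches 2.06 after castration.

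Mc2r (ENSMUSG00000045569, GRCm38 chromosome 18, 68406907 to 68429320, minus strand), the ACTH receptor, did not pass the test in any female comparison by genotype. In females at 6 weeks it stood at 376, 369, 325 and 354 CPM in controls and 298, 349, 316 and 365 CPM in cKO glands. The groups overlapped there, and at 9 and 12 weeks as well. The log2 fold changes were -0.10 ± 0.11, -0.06 ± 0.11 and -0.12 ± 0.11 at 6, 9 and 12 weeks, and none passed the test (adjusted p = 0.514, 0.7 and 0.458). The 95% interval at 6 weeks ran from -0.33 to 0.12.

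In males Mc2r was lower in the knockout at 6 weeks. Control glands held 272, 338, 237 and 315 CPM and cKO glands 172, 211, 264 and 160 CPM, with cKO replicate 3 inside the control range. Mc2r fell by 0.53 ± 0.16 on the log2 scale (1.44-fold lower, adjusted p = 0.0183). The call was lost without cKO replicate 1 or 4 or control replicate 2 or 4 (adjusted p = 0.0859, 0.0921, 0.0715 and 0.0557), and with library number as a term of the fit the value was -0.59 (adjusted p = 0.0827). At 9 weeks all 4 cKO libraries (220, 214, 196 and 227 CPM) lay below all 4 controls (282, 290, 267 and 276 CPM), where 21.7% of all genes had groups that did not overlap. The difference of -0.38 ± 0.16 did not pass (adjusted p = 0.0778), and it passed with a fit of those groups alone (adjusted p = 0.0106). At 4 weeks the groups overlapped (-0.14 ± 0.15, adjusted p = 0.587). Between 4 and 9 weeks Mc2r fell in cKO glands, from 343, 235, 383 and 231 CPM to the 9-week values above (-0.48 ± 0.16, adjusted p = 0.0169), where 5 of the 10 genes and 41.7% of all genes were called. This call was lost without cKO replicate 1 or 3 at 4 weeks or replicate 3 at 9 weeks (adjusted p = 0.0553, 0.0937 and 0.0521). In control males the change over the same weeks was -0.23 ± 0.16 (adjusted p = 0.45), and the difference between the genotypes' changes did not pass (-0.24 ± 0.22, adjusted p = 0.528). The difference of the Mc2r genotype effect between the sexes did not pass at 6 or 9 weeks. It passed at 9 weeks with DESeq2 (-0.36, adjusted p = 0.0334) and without female control replicate 4 (-0.50, adjusted p = 0.0166). At 6 weeks it passed without male cKO replicate 3 (-0.57, adjusted p = 0.0448).

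Mc2r rose after castration of cKO males. Sham-operated glands held 189, 269, 234 and 242 CPM and castrated glands 300, 412, 383 and 421 CPM, with no overlap, as for 43.1% of all genes. The rise was 1.62-fold (log2 0.70 ± 0.15, adjusted p = 0.00325). The summed level of the 10 genes of the steroidogenic machinery, which also mark cortical cells, was 29626 to 42099 CPM in sham glands and 71315 to 81562 CPM in castrated ones. That of the 8 macrophage markers, 7 of which fell, was 1234 to 2539 CPM in sham and 342 to 562 CPM in castrated glands. Of all genes, 23.8% were called lower after castration. The part of cell composition in the Mc2r change was not tested.

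Mrap (ENSMUSG00000039956, chromosome 16, 90738207 to 90749785, plus strand), the accessory protein that Mc2r needs, was called in none of the 17 contrasts by edgeR, where 2 had an unadjusted p under 0.05 and DESeq2 called 1. In females at 12 weeks controls held 292, 163, 171 and 177 CPM and cKO glands 146, 179, 113 and 99.9 CPM (-0.58 ± 0.23, adjusted p = 0.0671). At 6 weeks the control libraries lay close together (208, 191, 198 and 189 CPM) while the cKO libraries ran from 104 to 226 CPM (-0.38 ± 0.23, adjusted p = 0.222). Without cKO replicate 4, the highest of these, the difference was -0.63 (adjusted p = 0.0326). In males at 6 weeks the 4 cKO libraries (173, 144, 168 and 164 CPM) lay below the 4 controls (178, 282, 228 and 181 CPM), where 24.7% of all genes had groups that did not overlap, without passing (-0.42 ± 0.20, adjusted p = 0.147). After castration the difference was 0.28 ± 0.13 (102 to 141 CPM in sham and 127 to 170 CPM in castrated glands, adjusted p = 0.107). With the reporter allele as a covariate it was 0.38 (adjusted p = 0.0209).

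Of 5 further genes of the melanocortin receptors and their accessory proteins, Mc1r, Mc3r and Mc4r were too low to test in any table and Mc5r in males and the surgery series. Mrap2, a relative of Mrap, stood near 1 CPM. In castrated glands it was at 1.03, 3.28, 5.03 and 3.91 CPM against a range of 0.217 to 1.98 CPM in sham glands (log2 1.84 ± 0.63, adjusted p = 0.0357). Mrap2 also rose in cKO females at 9 weeks (1.15 ± 0.39, adjusted p = 0.025).

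Gnas (ENSMUSG00000027523, chromosome 2, 174284320 to 174346744, plus strand), the stimulatory G protein alpha subunit gene, was the most abundant of the 10 in counts. It was lower in the male knockout at 4 and 6 weeks and did not pass the test in females. At 6 weeks male controls held 2502, 2656, 2574 and 2691 CPM and cKO glands 1681, 1796, 1807 and 1773 CPM, far apart from each other. Gnas fell by 0.56 ± 0.08 on the log2 scale (1.48-fold lower, adjusted p = 1.62e-05). At 4 weeks it went from 2375, 2471, 2277 and 2406 CPM to 2007, 1831, 2040 and 1804 CPM, again without overlap. Groups did not overlap for 24.7% of all genes at 6 weeks and 19.1% at 4 weeks. The change of Gnas at 4 weeks was -0.31 ± 0.08 (adjusted p = 0.00757). That call was lost with library number as a term of the fit (-0.27, adjusted p = 0.0686), with no filter on low counts, with a fit of those groups alone and without cKO replicate 2 or 4 (adjusted p = 0.0606 and 0.065). By 9 weeks the male genotypes overlapped (-0.18 ± 0.08, adjusted p = 0.115).

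In females Gnas differed by -0.05 ± 0.07, -0.11 ± 0.07 and -0.10 ± 0.07 at 6, 9 and 12 weeks (adjusted p = 0.631, 0.284 and 0.338). The genotype effect at 6 weeks was lower in males than in females by 0.53 on the log2 scale when tested as a difference (-0.53 ± 0.12, adjusted p = 0.0155). This sex difference rests on separate tables, and it lost the threshold without female control replicate 1 (-0.46, adjusted p = 0.054). In that fit male genotype coincides with library number range, so the sex difference cannot be told apart from it. Of the 10 genes 3 were called in that test (1 higher, 2 lower), and of all genes 7.63% (5.08% higher and 2.55% lower). The medulla, whose 8 summed markers fell from 7283 to 15159 CPM in male controls to 658 to 1188 CPM in male cKO glands at 6 weeks, also moved with genotype in females (3730 to 4736 CPM down to 236 to 456 CPM at 6 weeks). Its part in the Gnas levels was not tested. The locus also carries the antisense gene Nespas, which had at most 27 counts in a library.

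After castration Gnas was at 2252, 2039, 2071 and 2263 CPM against 2243, 1427, 1269 and 1550 CPM in sham glands. Sham replicate 1, the library with the high mitochondrial share, sat among the castrated values. With all libraries the difference was 0.41 ± 0.18 (adjusted p = 0.093), and without sham replicate 1 it was 0.61 (adjusted p = 0.00106).

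**Figure D2:**
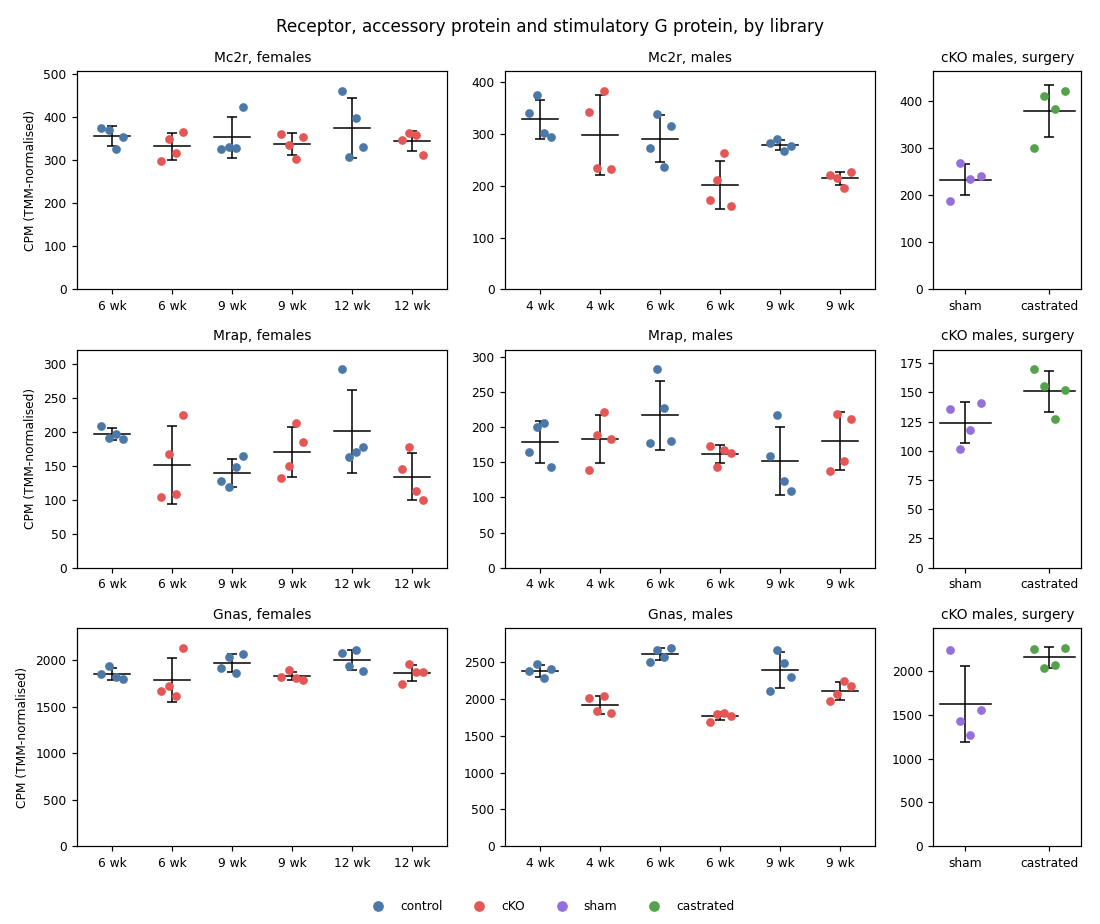
CPM of Mc2r, Mrap and Gnas in each library (points), with the group mean and SD (bars), for females, males and the surgery series, with controls in blue, cKO in red, sham in purple and castrated in green. Gnas in male cKO glands at 6 weeks (1681 to 1807 CPM) sits below all male controls of that age, and Mc2r in castrated glands (300 to 421 CPM) above all sham glands.

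Among the adenylyl cyclases, the enzymes that make cAMP, more genes fell than rose in the knockout in 5 of the 6 comparisons. Of 9 genes tested, 6, 5 and 5 fell in females at 6, 9 and 12 weeks with none higher, and 5, 4 and 2 fell in males at 4, 6 and 9 weeks with 1, 0 and 2 higher. Over all genes too, more were called lower than higher in each of the 6 comparisons. The shares were 19.1%, 20% and 16% lower and 14.2%, 14.6% and 9.11% higher in females. In males 12.9%, 11.9% and 13.6% were lower and 6.29%, 8.19% and 10.4% higher. The medians were -0.63, -0.39 and -0.31 in females and -0.40, 0.05 and -0.15 in males. Adcy1, a calcium-stimulated cyclase, fell in all 6 comparisons. In females at 6 weeks Adcy1 went from 6.4, 4.04, 5.51 and 7.64 CPM to 1.05, 0.998, 0.993 and 0.75 CPM (6.21-fold lower, log2 -2.63 ± 0.24). In males its log2 fold changes were -2.29 ± 0.22, -2.30 ± 0.22 and -2.32 ± 0.21 at 4, 6 and 9 weeks. Adcy5 fell in all 6 as well, by 1.26 ± 0.19 on the log2 scale in females at 6 weeks and 0.77 ± 0.14 in males at 6 weeks. Adcy6, at a higher level, went from 66.7, 72.5, 71.3 and 67.4 CPM to 40.2, 39.2, 39.9 and 38 CPM in females at 9 weeks (-0.82 ± 0.06). Summed over the family the change was smaller, at 261 to 282 CPM in controls and 192 to 283 CPM in cKO glands of females at 6 weeks.

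After castration 8 of the 9 cyclases tested fell and none rose, with a median of -1.19. Of all genes, 23.8% were called lower there and 19.8% higher. Adcy6 went from 77.4, 65.4, 77.8 and 64.4 CPM in sham glands to 38.9, 38.2, 36.8 and 33.6 CPM in castrated ones (-0.95 ± 0.11). Adcy4 and Adcy7 fell by 1.34 ± 0.17 and 1.19 ± 0.17 on the log2 scale. The same count of 8 held without sham replicate 1. Summed endothelial markers were 813 to 1149 CPM in sham and 708 to 788 CPM in castrated glands, and macrophage markers fell as given above. Their part in the cyclase levels was not tested.

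Of 5 other G protein alpha subunits, Gnai1, an inhibitory subunit gene, rose in females at 6 and 9 weeks (0.58 ± 0.13 and 0.61 ± 0.13) and in males at 4 weeks (0.67 ± 0.22). After castration Gnai1 was at 50.2, 80.6, 68.4 and 53.7 CPM against 9.53, 13.2, 10.4 and 12.6 CPM in sham glands, a 5.53-fold rise (2.47 ± 0.18, adjusted p = 4.92e-06). Over 4 to 9 weeks in cKO males Gnai1 fell by 1.68 ± 0.23 on the log2 scale. Gnaz fell in females at all 3 ages (-0.71 to -0.92 on the log2 scale) and after castration (-1.08 ± 0.26).

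Prkaca (ENSMUSG00000005469, chromosome 8, 83972993 to 83996443, plus strand), the main catalytic subunit gene of PKA, was higher in cKO males at 4 weeks. The 4 controls held 196, 169, 192 and 182 CPM and the cKO glands 192, 237, 226 and 275 CPM, with cKO replicate 1 inside the control range. The rise of 0.33 ± 0.10 (1.26-fold, adjusted p = 0.0243) was lost with library number as a term of the fit (0.20, adjusted p = 0.329), with a fit of those groups alone (adjusted p = 0.075) and without cKO replicate 4 (adjusted p = 0.0561). No other genotype comparison of Prkaca passed. The nearest was that of females at 9 weeks (0.17 ± 0.07, adjusted p = 0.0748), which passed with DESeq2 and with relative log expression scaling.

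Prkaca rose after castration, from 147, 162, 155 and 168 CPM to 200, 257, 225 and 261 CPM. The groups did not overlap, as for 43.1% of all genes, and the rise was 1.49-fold (0.58 ± 0.11, adjusted p = 0.00224).

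Prkar1a (ENSMUSG00000020612, chromosome 11, 109649405 to 109669656, plus strand), the main type I regulatory subunit that holds the catalytic subunit inactive, did not pass the test in females. In controls at 9 weeks it was at 598, 596, 605 and 599 CPM and in cKO glands at 581, 562, 670 and 603 CPM (0.01 ± 0.06, adjusted p = 0.903). The 95% intervals of the 3 female comparisons lay within -0.16 and 0.14. In males it fell with age in the knockout. At 9 weeks cKO glands held 445, 401, 395 and 422 CPM against 563, 529, 492 and 486 CPM in controls. The groups did not overlap, as for 21.7% of all genes, and the difference was -0.32 ± 0.07 (adjusted p = 0.00282). Within the libraries numbered up to 24 the value was -0.37 (adjusted p = 0.0654) and within those above 24 it was -0.25 (adjusted p = 0.123), with 2 libraries a group in each. Between 4 and 9 weeks the cKO level went from 574, 544, 602 and 579 CPM to these values (-0.47 ± 0.07, adjusted p = 4.21e-05), while in controls the change was -0.10 ± 0.07 (adjusted p = 0.521).

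The change of the Prkar1a genotype effect between 4 and 9 weeks passed when tested as an interaction (-0.37 ± 0.10, adjusted p = 0.0399), where 1 of the 10 genes was called, and of all genes 4.92% (2.94% higher and 1.97% lower). It lost the threshold with library number as a term of the fit (-0.34, adjusted p = 0.15), with a fit of those groups alone (adjusted p = 0.0843), and without any 1 of 6 libraries (adjusted p from 0.0501 to 0.0708). These were cKO replicates 3 and 4 and control replicate 4 at 4 weeks, and control replicate 1 and cKO replicates 2 and 3 at 9 weeks. The upstream stretch of Prkar1a printed above was the only one of the 25 with the full cAMP response element letters.

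After castration Prkar1a was at 573, 646, 617 and 586 CPM against 347, 484, 521 and 440 CPM in sham glands. The rise of 0.43 ± 0.14 (1.35-fold, adjusted p = 0.0271) was lost without castrated replicate 2 or 3 or sham replicate 4 (adjusted p = 0.073, 0.0636 and 0.0591).

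Prkar2b (ENSMUSG00000002997, chromosome 12, 31958476 to 32061296, minus strand), a type II regulatory subunit gene, was higher in cKO females. At 6 weeks controls held 171, 162, 203 and 183 CPM and cKO glands 256, 311, 229 and 208 CPM, without overlap (0.48 ± 0.13, adjusted p = 0.006). At 12 weeks it went from 165, 134, 186 and 161 CPM to 255, 282, 232 and 190 CPM, also without overlap (0.57 ± 0.13, adjusted p = 0.00245). Groups did not overlap for 30.4% of all genes at 6 weeks and 26.2% at 12 weeks. At 9 weeks the groups of Prkar2b overlapped (0.20 ± 0.13, adjusted p = 0.265). The difference between the ages' genotype effects did not pass (9 against 6 weeks -0.29 ± 0.18, adjusted p = 0.845, where 0.0644% of all genes were called, each of them higher).

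In males Prkar2b did not pass at any age (0.20 ± 0.19, -0.28 ± 0.20 and -0.43 ± 0.20 at 4, 6 and 9 weeks). The sex difference of the genotype effect at 6 weeks passed (-0.78 ± 0.23, adjusted p = 0.0443), and was lost when any 1 of 11 of the 16 libraries was left out (adjusted p from 0.0541 to 0.11). These were female control replicates 1, 2 and 4, female cKO replicates 1 and 2, male cKO replicates 1, 3 and 4, and male control replicates 1, 2 and 4. The sex difference at 6 weeks also cannot be told apart from library number range, with which male genotype coincides at that age. In cKO males Prkar2b fell between 4 and 9 weeks, from 283, 247, 377 and 330 CPM to 251, 181, 149 and 159 CPM (-0.74 ± 0.20, adjusted p = 0.00437), with 1 overlapping library at 9 weeks. Prkaca fell over the same weeks by 0.27 ± 0.10 (adjusted p = 0.0399), a call lost without any 1 of 6 of the 8 libraries, namely cKO replicates 2, 3 and 4 at either age (adjusted p from 0.0581 to 0.204). The call was also lost with library number as a term of the fit (-0.17, adjusted p = 0.188), with a fit of those groups alone, with relative log expression scaling and with the filter at CPM 5 (adjusted p = 0.0661, 0.0503 and 0.0564). Castration left Prkar2b at 203 to 275 CPM against 151 to 282 CPM in sham glands (0.03 ± 0.18, 95% interval -0.37 to 0.43).

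**Figure D3:**
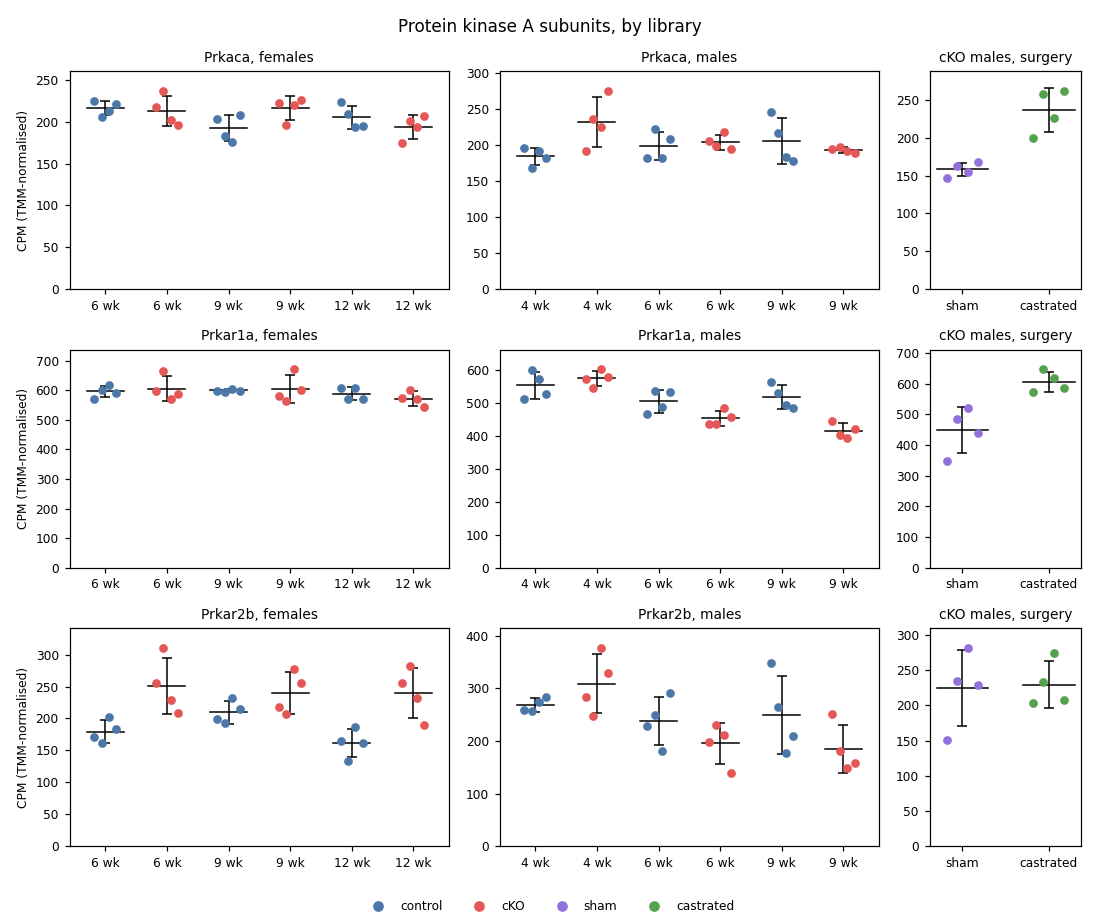
CPM of the PKA subunit genes Prkaca, Prkar1a and Prkar2b in each library (points), with the group mean and SD (bars), by age, genotype (control blue, cKO red) and surgery (sham purple, castrated green). Prkar1a in male cKO glands at 9 weeks (395 to 445 CPM) lies below all controls of that age, and Prkar2b in female cKO glands at 12 weeks (190 to 282 CPM) above all controls.

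Of 9 other subunits, inhibitors and anchors of PKA, 4, 4 and 2 fell in females at 6, 9 and 12 weeks and none rose. Of all genes, 19.1%, 20% and 16% were called lower there. In males 2, 1 and 2 fell at 4, 6 and 9 weeks, and 1 rose at 9 weeks. Of all genes, 12.9%, 11.9% and 13.6% were called lower in those males, and 10.4% higher at 9 weeks. Akap12, an anchor protein that holds PKA near the membrane, fell in females at all 3 ages (-0.50 ± 0.09, -0.61 ± 0.09 and -0.40 ± 0.09) and in males at 4 weeks (-0.69 ± 0.15). Pkib, a PKA inhibitor gene, rose 2.24-fold in males at 9 weeks and fell after castration (-1.39 ± 0.23).

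Pde8b (ENSMUSG00000021684, chromosome 13, 95024454 to 95250336, minus strand), a high-affinity cAMP phosphodiesterase of the adrenal cortex, showed the largest rise of the 10 genes after castration. Sham-operated cKO glands held 40.5, 49.1, 49.8 and 50.2 CPM and castrated cKO glands 159, 263, 190 and 177 CPM. All 4 castrated libraries were more than 100 CPM above every sham library, where 43.1% of all genes had groups that did not overlap. The rise was 4.16-fold (2.06 ± 0.16, 95% interval 1.70 to 2.42, adjusted p = 7.96e-06). The summed steroidogenic machinery was also higher in castrated glands, as given for Mc2r, and its part in the change was not tested.

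In females Pde8b was higher in the knockout at 6 and 9 weeks. At 9 weeks controls held 150, 110, 112 and 166 CPM and cKO glands 232, 163, 270 and 289 CPM, with cKO replicate 2 inside the control range (1.77-fold, 0.82 ± 0.17, adjusted p = 0.000501). At 6 weeks it went from 152, 128, 137 and 173 CPM to 194, 275, 176 and 167 CPM (0.46 ± 0.17, adjusted p = 0.0344). That call was lost without control replicate 1, 2 or 3 (adjusted p = 0.0574, 0.0971 and 0.0837) or without cKO replicate 2 (0.30, adjusted p = 0.149). At 12 weeks all 4 cKO libraries (195, 209, 187 and 185 CPM) lay above all controls (165, 152, 143 and 174 CPM), without passing (0.29 ± 0.17, adjusted p = 0.212). Of all genes, 26.2% had groups that did not overlap in that comparison. With a fit of those groups alone Pde8b passed (0.30, adjusted p = 0.0162).

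In males the genotypes overlapped at every age. The log2 fold changes of Pde8b were 0.33 ± 0.20 at 4 weeks, 0.03 ± 0.20 at 6 weeks and -0.15 ± 0.20 at 9 weeks. At 4 weeks control replicate 2 was high (113 CPM against 65.3, 70.1 and 67.3 CPM), and without it the difference was 0.60 (adjusted p = 0.0295). In cKO males Pde8b fell between 4 and 9 weeks, from 83.8, 92.7, 122 and 99.5 CPM to 61.2, 57.2, 57.8 and 54.7 CPM (-0.78 ± 0.20, adjusted p = 0.00349). In control males the change was -0.30 ± 0.20 (adjusted p = 0.452). The difference in genotype effect between the sexes at 9 weeks passed (-0.98 ± 0.28, adjusted p = 0.0374), where 8.68% of all genes were called (5.39% higher and 3.29% lower). It was lost without any 1 of 8 of the 16 libraries (adjusted p from 0.0504 to 0.0743). These were female control replicates 2 and 3, female cKO replicates 1, 3 and 4, male control replicate 1 and male cKO replicates 2 and 3.

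Pde2a (ENSMUSG00000110195, chromosome 7, 101421691 to 101512827, plus strand), a phosphodiesterase that cGMP stimulates and that is known from the zona glomerulosa, was lower in every knockout group. In females at 6 weeks controls held 19.5, 18.2, 18 and 20 CPM and cKO glands 5.01, 4.09, 4.19 and 1.57 CPM (5.09-fold lower, -2.35 ± 0.23, adjusted p = 5.37e-08). At 9 weeks it went from 17.7, 17.4, 21.3 and 16.4 CPM to 7.3, 3.73, 6.43 and 5.73 CPM (3.14-fold lower, -1.65 ± 0.23). At 12 weeks it went from 14.2, 17.9, 17.7 and 17.6 CPM to 8.73, 9.47, 9.01 and 6.96 CPM (1.97-fold lower, -0.98 ± 0.22). The groups did not overlap at any of the 3 ages, as for 30.4%, 33.4% and 26.2% of all genes. The cKO libraries at 12 weeks (6.96 to 9.47 CPM) all lay above those at 6 weeks (1.57 to 5.01 CPM).

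In cKO females Pde2a rose 2.3-fold between 6 and 12 weeks (1.20 ± 0.23, adjusted p = 0.00271), where 1 of the 10 genes rose and none fell. Of all genes, 9.93% were called there, 6.03% higher and 3.9% lower, and 13% had groups that did not overlap. With a fit of those groups alone the value was 1.19 (adjusted p = 0.0583). In control females the change was -0.17 ± 0.22 (adjusted p = 0.911). The change of the genotype effect between 6 and 12 weeks missed the threshold (1.37 ± 0.32, adjusted p = 0.0618), where 0.322% of all genes were called, 0.316% higher and 0.00536% lower. It passed with DESeq2, with no filter on low counts, and with a filter at CPM 5 (adjusted p = 0.00186, 0.0492 and 0.0464).

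In males Pde2a went from 11.2, 15.1, 15.6 and 14.5 CPM to 3.07, 6.28, 4.75 and 5.4 CPM at 4 weeks (2.92-fold lower, -1.54 ± 0.22). At 6 weeks it went from 14.4, 12.7, 12 and 13.8 CPM to 7.84, 6.6, 5.71 and 6.45 CPM (1.99-fold lower, -1.0 ± 0.22). At 9 weeks it went from 14.2, 9.04, 13.2 and 14.6 CPM to 5.24, 3.68, 4.53 and 8.14 CPM (2.36-fold lower, -1.24 ± 0.22). No male group overlapped with its control, as for 19.1%, 24.7% and 21.7% of all genes at 4, 6 and 9 weeks. With library number as a term of the fit the value at 6 weeks was -0.61 (adjusted p = 0.176), and with libraries numbered up to 24 alone, which leaves 1 control, the value at 4 weeks was -1.20 (adjusted p = 0.0811). At 6 weeks the genotype effect was smaller in size in males than in females (difference 1.34 ± 0.32, adjusted p = 0.0192), and at 9 weeks the difference was 0.40 ± 0.33 (adjusted p = 0.469). In the fit at 6 weeks male genotype coincides with library number range, so the sex difference cannot be told apart from it.

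Markers of the zona glomerulosa fell with Pde2a. Their sum was 1334 to 1496 CPM in control and 320 to 420 CPM in cKO females at 6 weeks, and 1202 to 1614 against 586 to 794 CPM at 12 weeks. In males at 6 weeks it was 1615 to 2160 against 612 to 754 CPM. Cyp11b2, Agtr1b, Kcnk9, Dab2, Shh and Hsd3b6 made up this list, and all 6 fell in females at 6 weeks, where 19.1% of all genes were called lower. The part of this zone's cells in the Pde2a change was not tested.

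In the surgery series Pde2a stood at 4.41, 17.5, 21.7 and 14.4 CPM in sham glands and 4.5, 6.84, 6.41 and 4.46 CPM in castrated ones. Sham replicate 1 lay at the castrated level, below the lowest castrated library. Pde2a fell by 1.39 ± 0.39 on the log2 scale (adjusted p = 0.0152), and by 1.68 without that library (adjusted p = 0.00012). With the libraries numbered up to 16 alone, which keeps 2 of the sham libraries, the difference was -1.0 (adjusted p = 0.116). All 6 zona glomerulosa markers fell after castration, where 23.8% of all genes were called lower. Their sum in sham replicate 1 was 1088 CPM against 1694 to 2027 CPM in the other sham glands and 429 to 596 CPM in castrated ones. Gm45837 (101410886 to 101512819) overlaps most of Pde2a on the same strand, and its reads numbered at most 13 in a library. How reads that fit both genes were assigned is not known. This low count therefore does not show whether Pde2a lost reads to the overlap.

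**Figure D4:**
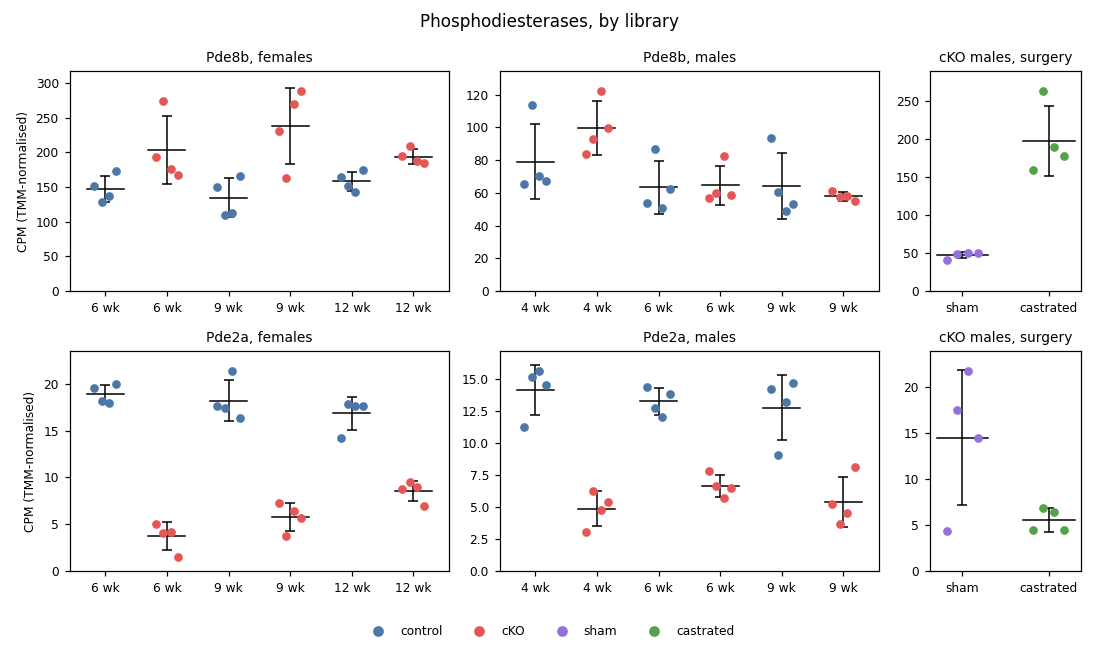
CPM of the phosphodiesterase genes Pde8b and Pde2a in each library (points), with the group mean and SD (bars), by age, genotype (control blue, cKO red) and surgery (sham purple, castrated green). Pde2a in cKO glands lies below the controls at each age in both sexes, and Pde8b in castrated glands (159 to 263 CPM) lies far above sham glands (40.5 to 50.2 CPM).

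The other phosphodiesterases included genes that rose and genes that fell. Of 13 tested in females, 3 rose and 5 fell at 6 weeks, 3 rose and 6 fell at 9 weeks, and 3 rose and 4 fell at 12 weeks. Of 12 tested in males, none rose and 1, 3 and 2 fell at 4, 6 and 9 weeks. After castration 2 rose and 6 fell. Over all genes, 14.2%, 14.6% and 9.11% were called higher and 19.1%, 20% and 16% lower in females at those ages. In males 6.29%, 8.19% and 10.4% were called higher and 12.9%, 11.9% and 13.6% lower. After castration 19.8% of all genes were called higher and 23.8% lower. Pde7a, a cAMP-specific enzyme gene, had the largest rise of the list after castration. In females at 6 weeks Pde7a went from 125, 150, 128 and 106 CPM to 340, 441, 360 and 369 CPM (2.96-fold, 1.57 ± 0.11). In castrated glands Pde7a stood at 279, 362, 284 and 270 CPM against 34.9, 25.7, 29.8 and 26 CPM in sham glands, a 10.3-fold rise (3.36 ± 0.15, adjusted p = 3.08e-07). In males Pde7a did not pass in any of the 3 genotype comparisons (0.20 ± 0.30, -0.52 ± 0.31 and 0.04 ± 0.31). Pde3a, which cGMP inhibits, fell in all 6 genotype comparisons, from -1.17 ± 0.12 in males at 9 weeks to -1.70 ± 0.14 in females at 6 weeks, and after castration (-1.44 ± 0.18).

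A list drawn up around cGMP, the nucleotide that acts on Pde2a and Pde3a, held Npr1, Npr2, Npr3, Gucy1a1 and Gucy1b1. They encode natriuretic peptide receptors and subunits of the nitric oxide receptor. Of these 5 genes tested, 4, 3 and 2 fell in females at 6, 9 and 12 weeks, where 19.1%, 20% and 16% of all genes were called lower. In males 2, 1 and 2 fell at 4, 6 and 9 weeks, where 12.9%, 11.9% and 13.6% of all genes were called lower. None of the 5 was called higher in these comparisons. Gucy1a1, a subunit of the nitric oxide receptor, fell in all 6 comparisons (-0.75 ± 0.11 to -1.45 ± 0.19). Npr2, a natriuretic peptide receptor gene, fell in females at all 3 ages and after castration, where it went from 120, 82, 87.8 and 81.4 CPM to 28.7, 22.2, 23.8 and 24.3 CPM (-1.91 ± 0.15).

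Creb1 (ENSMUSG00000025958, chromosome 1, 64532645 to 64604548, plus strand), the transcription factor that PKA phosphorylates, had the smallest SEs of the 10 in females. edgeR called it in none of the 17 contrasts, where 4 had an unadjusted p under 0.05 and DESeq2 called 2. In females all 4 cKO libraries lay above all controls at 9 weeks (0.10 ± 0.05, adjusted p = 0.126), where 33.4% of all genes had groups that did not overlap, and at 12 weeks, where 26.2% had. At 12 weeks the cKO libraries, at 46.5, 45.4, 45.4 and 47.8 CPM, stood against controls at 41.2, 41.1, 42.5 and 44.1 CPM. The difference was small (0.13 ± 0.05, 95% interval 0.03 to 0.23) and missed the threshold (adjusted p = 0.0538). It passed with DESeq2 and with relative log expression scaling (adjusted p = 0.0157 and 0.0298). In males the log2 fold changes lay between -0.05 and -0.01, with intervals inside -0.22 and 0.15. After castration Creb1 differed by 0.07 ± 0.13. Such RNA levels do not report the phosphorylation of the protein.

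Crem (ENSMUSG00000063889, chromosome 18, 3266048 to 3337748, minus strand) makes activators and, from an inner promoter, the inducible repressor ICER, which a count over the whole gene does not separate. It was lower in cKO males at 6 weeks. Controls held 15.5, 30.1, 50.1 and 19.8 CPM and cKO glands 16.4, 14.2, 12.5 and 15.9 CPM, with control replicate 1 inside the cKO range (1.95-fold lower, -0.96 ± 0.26, adjusted p = 0.0102). Without control replicate 3, the highest, the difference was -0.51 (adjusted p = 0.111), and with library number as a term of the fit it was -0.80 (adjusted p = 0.179). At 4 weeks it missed the threshold (-0.72 ± 0.26, adjusted p = 0.0516). It passed there with DESeq2, with a fit of those groups alone, and without control replicate 1 or cKO replicate 1 (adjusted p = 0.0314, 0.0395, 0.036 and 0.0392). At 9 weeks it did not pass (-0.35 ± 0.26, adjusted p = 0.358).

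Single libraries stood far above their groups for Crem in females. At 6 weeks the cKO glands held 16.1, 17.4, 14.4 and 118 CPM against 22, 35.4, 29.2 and 17.3 CPM in controls (0.67 ± 0.48, adjusted p = 0.311). Without cKO replicate 4 the sign turned, to -0.70 (adjusted p = 0.0569). At 12 weeks control replicate 1 held 44.9 CPM against 17.7 to 22.3 CPM in the other controls and 13.7 to 20.5 CPM in cKO glands (-0.54 ± 0.49, adjusted p = 0.457). After castration Crem was at 28.4, 13.6, 13.9 and 14 CPM against 25.9, 14.4, 22.6 and 22 CPM in sham glands (-0.28 ± 0.26, adjusted p = 0.412). Without castrated replicate 1 the difference was -0.61 (adjusted p = 0.0261).

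The 2 female libraries with high Crem were also the highest in the immediate early genes that cAMP and other stimuli induce within minutes, such as Fos, Nr4a1 and Sik1. The summed level of 9 such genes was 1841 CPM in cKO replicate 4 at 6 weeks, against 159 to 752 CPM in the other 3 cKO glands of that age. It was 2904 CPM in control replicate 1 at 12 weeks, against 243 to 808 CPM in the other controls. In castrated replicate 1, where Crem was high as well, the sum was 373 CPM, the lowest of the castrated glands. The part of these genes' inducers in the Crem values was not tested.

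In females at 12 weeks 7 of the 9 immediate early genes fell in the knockout, with a median of -3.05, where 16% of all genes were called lower. Without control replicate 1 a single gene of the 9 was called lower. Sik1, a salt-inducible kinase gene that limits CREB signalling, was at 154, 59.8, 11.2 and 12 CPM in controls and 3.43, 3.76, 9.16 and 6.12 CPM in cKO glands (-3.39 ± 0.83, adjusted p = 0.00397). In males at 6 weeks Nr4a3, Nr4a2 and Sik1 fell, 3 of 9 (-1.44 ± 0.34, -2.16 ± 0.54 and -1.36 ± 0.42), and 1 of 9 without control replicate 3. Of all genes, 11.9% were called lower in those males.

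**Figure D5:**
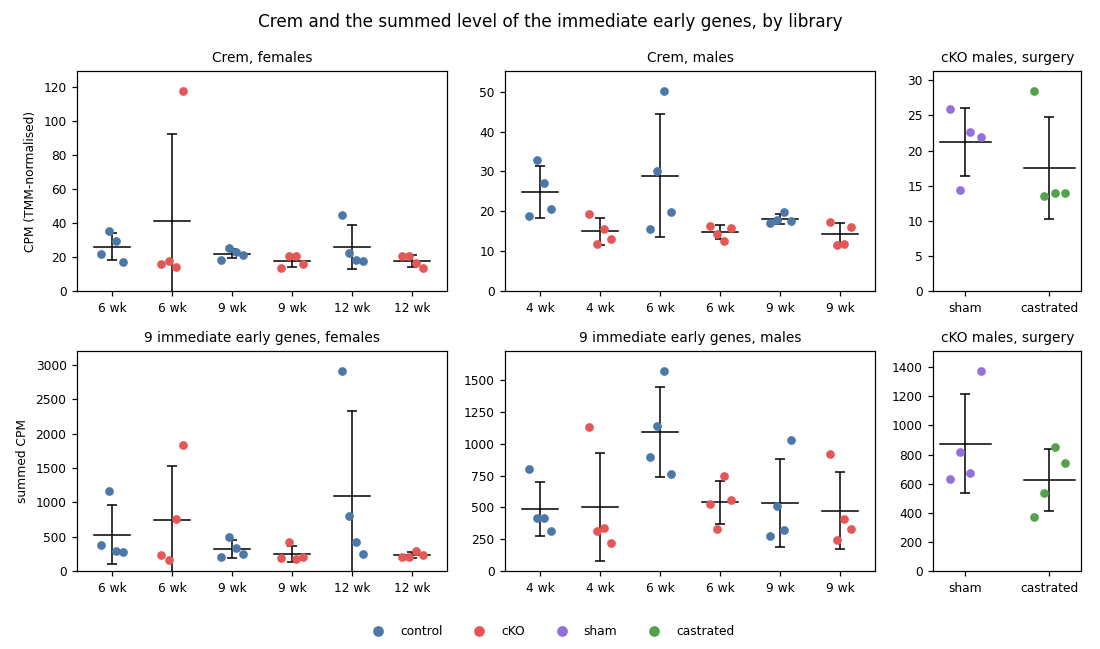
CPM of Crem (top) and summed CPM of 9 immediate early genes (bottom) in each library, with the group mean and SD (bars, cut at 0), by age, genotype (control blue, cKO red) and surgery (sham purple, castrated green). Crem reaches 118 CPM in 1 cKO female at 6 weeks and 44.9 CPM in 1 control female at 12 weeks, where the summed immediate early genes reach 1841 and 2904 CPM.

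Of 9 genes of the CREB family, its coactivators and the salt-inducible kinases, at most 1 rose and 1 fell in any genotype comparison. Over all genes, 6.29% to 14.6% were called higher and 11.9% to 20% lower in these comparisons. Crtc3, a CREB coactivator gene, rose in females at 6, 9 and 12 weeks (0.59 ± 0.08, 0.37 ± 0.08 and 0.29 ± 0.08) and in males at 4 and 6 weeks (0.50 ± 0.08 and 0.26 ± 0.08). It also rose after castration (0.42 ± 0.12), as did Atf1, a close relative of Creb1 (0.68 ± 0.19).

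Among 10 genes of the steroidogenic machinery that this pathway drives, 2 rose and 2 fell in females at 6 and 9 weeks. This is near the shares of all genes, with 14.2% and 14.6% called higher and 19.1% and 20% lower. At 12 weeks 2 rose, where 9.11% of all genes were called higher. In males 2 rose at 4 weeks, where 6.29% of all genes were called higher. In males 3 fell at 6 weeks and 3 fell at 9 weeks, where 11.9% and 13.6% of all genes were called lower. Nr5a1, which encodes SF1, rose in females at all 3 ages (0.77 ± 0.15 to 0.97 ± 0.15), while Star, which brings cholesterol into mitochondria, fell at 6 and 9 weeks (-0.72 ± 0.20 and -0.83 ± 0.20). After castration 6 rose and 1 fell, with a median of 0.99, where 19.8% of all genes were called higher and 23.8% lower. Nr5a1 went from 878, 618, 756 and 857 CPM to 2582, 2314, 2244 and 2495 CPM (3.1-fold, 1.63 ± 0.15). Cyp21a1, the steroid 21-hydroxylase gene, rose 3.12-fold (1.64 ± 0.20). Without sham replicate 1 the count was 6 higher and 2 lower.

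Rapgef4, which encodes a cAMP sensor other than PKA, rose with castration from 266, 201, 226 and 205 CPM to 528, 579, 502 and 588 CPM (2.45-fold, 1.29 ± 0.13, adjusted p = 2.86e-05). It was also the gene whose log2 CPM was most like that of Mc2r across libraries, with Pearson r = 0.76 over the 24 female and 0.83 over the 24 male libraries. After group means were removed r was 0.77 and 0.65. Cyp21a1 (0.73 and 0.74), 1110008P14Rik (0.71 and 0.83), Gprc5b (0.69 and 0.70) and Plpp1 (0.69 and 0.86) came next among 12767 genes ranked by the smaller r. The genes most like Pde8b were Caprin1 (0.86 and 0.87), Nqo2 (0.88 and 0.86), Wrnip1 (0.83 and 0.87), Ptp4a2 (0.81 and 0.81) and Eif1ax (0.82 and 0.81). Libraries of a table share their scaling and groups, so these values only describe the tables.

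Across age in control glands edgeR called none of the 10 genes, from 6 to 12 weeks in females or from 4 to 9 weeks in males, and in both the count was 0 at an unadjusted p under 0.05 and with DESeq2. Of all genes, 0.0912% were called in those females, each of them higher, and 5.84% had groups that did not overlap. In those males 3.13% were called, 0.913% higher and 2.22% lower. In control males Mc2r was lower in all 4 libraries at 9 weeks than at 4 weeks (-0.23 ± 0.16, adjusted p = 0.45), where 9.99% of all genes had groups that did not overlap. In cKO males 5 of the 10 fell between 4 and 9 weeks, Mc2r, Prkaca, Prkar1a, Prkar2b and Pde8b, and none rose. The calls of Mc2r and Prkaca have the limits given above. Of all genes, 20.9% were called lower and 20.8% higher in that comparison, and 34.3% had groups that did not overlap. The summed macrophage markers of cKO males were 202 to 539 CPM at 4 weeks and 755 to 4365 CPM at 9 weeks, and 6 of 8 rose, while 6 of the 10 genes of the steroidogenic machinery fell. Their part in the fall of the 5 genes was not tested. Of these 5, 4 rose after castration, all but Prkar2b, where 19.8% of all genes were called higher and 23.8% lower. The Prkar1a call after castration has the limits given above. The 19.8% and 23.8% are shares over all genes tested, not over genes that fell in cKO males between 4 and 9 weeks. How many of the latter rose after castration was not counted, so the 4 of 5 has no matching share beside it.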

How the data were processed

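Poly(A) RNA of whole adrenal glands was sequenced in 56 libraries, 4 in each of 14 groups. The authors deposited raw gene-level counts in 3 tables (females, males, surgery series). The submitters' processing notes name the GRCm38 build and list featureCounts, RSEM 1.6.3, cutadapt 1.16, DESeq2 1.30.1 and STAR 2.7.6a, without the role of each. The sources used here do not say how reads of overlapping genes were assigned. The number of columns that could not be mapped to a sample was 0. Gene symbols and positions come from GENCODE M21, which matched 99.38% of the identifiers in the tables of females and males and 93.99% in the surgery table.

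The 10 genes and the gene lists were chosen with earlier results of these data known. Differences were tested with edgeR 4.0.16 under R 4.3.3 (quasi-likelihood test on the deposited counts, TMM scaling, filterByExpr at a minimum count of 10). Adjustment was Benjamini-Hochberg over all genes tested, and all groups of a table entered 1 fit. The sexes were compared only through genotype effects, in a fit of the 16 libraries of both sexes at 1 age. All 10 genes passed the filter in each fit. Each SE is the size of the log2 fold change divided by the root of F, and 95% intervals come from a t quantile. Likeness used log2 CPM with a prior count of 2. Test scripts were tested on simulated data.

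Alternatives were relative log expression scaling, no filter, a filter of CPM 5 in 4 libraries, DESeq2 1.42.0, the groups compared alone, the replicate block, the library number range (above 24 in males, up to 16 in the surgery series), the reporter allele, and leaving out each library. The text names the 10 genes with each of their edgeR calls, but not each comparison that did not pass. It also names from each list at most 4 called genes with the smallest p, genes used to check libraries, and the 5 genes most like Mc2r and Pde8b. The series text says that each group comes from 4 independent mice. Sham animals all carry the same replicate number in the labels and got numbers by accession order, which serve as names. Counts of members per library ran from 65 for Pde2a to 96549 for Gnas, and counting error is smallest for the latter.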

Additional observations from a re-analysis of the deposited data

Results flagged for a closer look

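In groups of 4 libraries, 1 library lay far from the other 3 by Dixon's test in 9 of 140 groups of the 10 genes, where chance gives about 1 in 20. The high ones were Mc2r in control females at 9 weeks (425 CPM), Mrap in control females at 12 weeks (292 CPM), Pde8b in control males at 4 weeks (113 CPM) and in cKO males at 6 weeks (82.6 CPM), and Crem in cKO females at 6 weeks (118 CPM), control females at 12 weeks (44.9 CPM) and castrated cKO males (28.4 CPM). The low ones were Pde8b in sham-operated cKO males (40.5 CPM, in the sham library with the high mitochondrial share) and Pde2a in control females at 12 weeks (14.2 CPM). The Mrap, Crem and Pde2a libraries of control females at 12 weeks are the same one, replicate 1.

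The difference of a genotype effect between ages or sexes passed the interaction test with edgeR for 5 results. Between 4 and 9 weeks in males the effect on Prkar1a moved by -0.37 on the log2 scale (adjusted p = 0.0399), where 4.92% of all genes were called. At 6 weeks the effect in males minus that in females was -0.53 for Gnas, -0.78 for Prkar2b and 1.34 for Pde2a (adjusted p = 0.0155, 0.0443 and 0.0192). Of all genes, 7.63% were called in that test. At 9 weeks it was -0.98 for Pde8b (adjusted p = 0.0374), where 8.68% of all genes were called. The effect of Pde2a was negative in both sexes. The calls of Prkar1a, Gnas, Prkar2b and Pde8b were each lost when single libraries were left out, as given with each gene. The sex differences at 6 weeks cannot be told apart from library number range, with which male genotype coincides at that age.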

How the results depend on the processing

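No call of the 10 genes changed direction while called under any alternative run. Over all alternatives of single members, 2823 values kept their side of the threshold, 74 lost it and 53 gained it. Counts of the 10 genes called moved by over 1.5 times as follows. With DESeq2 they were 4 against 2 in females at 9 weeks, 4 against 2 in females at 12 weeks, 1 against 0 for the genotype effect at 12 versus 6 weeks in females, 2 against 1 for that at 9 versus 4 weeks in males, and 3 against 1 for the sex difference at 9 weeks. With no filter or with the CPM filter the female genotype effect at 12 versus 6 weeks gave 1. With relative log expression scaling the sex difference at 9 weeks gave 2. With library number as a term of the fit males gave 1 against 3 at 4 weeks, 1 against 4 at 6 weeks and 0 against 1 for the effect at 9 versus 4 weeks, and the sex difference at 9 weeks gave 3. At 6 weeks the library number could not be fitted for the sex difference. Libraries numbered up to 24 alone gave 0 in males at 4 weeks and 1 against 2 at 9 weeks, as did those above 24. With only the groups compared, 12 versus 6 weeks in cKO females and 9 versus 4 weeks by genotype in males gave 0 against 1. Same-numbered libraries did not deviate together (r from -0.22 to 0.14 in females and -0.38 to 0.17 in males, 2 of 12 over 0.1 in each), so the replicate block is only an alternative. With the replicate block the male genotype effect at 9 versus 4 weeks gave 0 against 1 (Prkar1a, adjusted p = 0.0597), and the calls of Prkar2b between the sexes at 6 weeks and of Prkaca over 9 versus 4 weeks in cKO males were lost (adjusted p = 0.07 and 0.0564). No paired analysis was possible in the surgery series because sham animals share 1 number. Leaving out 1 library gave 2 to 4 calls in females at 6 weeks, 2 to 3 at 9 and at 12 weeks, 1 to 4, 3 to 4 and 2 to 3 in males at 4, 6 and 9 weeks, and 4 to 6 after castration. It gave 1 to 2 in cKO females over 12 versus 6 weeks, 3 to 5 in cKO males over 9 versus 4 weeks, and 0 to 0 in controls of either sex. For the genotype effects it gave 0 to 0 and 0 to 1 in females at 9 and 12 versus 6 weeks, 0 to 0 and 0 to 3 in males at 6 and 9 versus 4 weeks, and 1 to 3 and 0 to 3 between the sexes at 6 and 9 weeks. For Nr4a3 at 12 versus 6 weeks in cKO females, -0.44 with all libraries, leaving out 1 library gave -0.76 to 0.92, the latter (adjusted p = 0.00887) without cKO replicate 4 at 6 weeks. The cause of these moves was not tested. Depth limits Pde2a most, with 65 to 881 counts a library.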
